A study of Mus musculus with 9 samples.

Results

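The mitochondrial ribosomal protein genes were taken as all gene symbols of the deposited log2 CPM table that begin with Mrpl or Mrps followed by a digit, with pseudogenes (-ps) left out. The rule used the names only and no measured value. It found 76 genes of 14592 named rows, 47 with a large-subunit name (Mrpl) and 29 with a small-subunit name (Mrps), and left out 1 pseudogene, Mrpl23-ps1. All 76 matched 1 gene ID each in the transcript files, and all 76 passed the filter on low counts (CPM above 1 in at least 4 libraries).

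RNAseq libraries were made from the mediobasal hypothalamus (MBH), which contains the arcuate nucleus and neurons that govern food intake, of male C57Bl/6 mice at P21, the age of weaning. P-values below measure only the spread between these libraries. Dams of the CTRL group (4 libraries) drank water, and dams of the Emul group (5 libraries) drank water with 1% carboxymethylcellulose (CMC) and 1% polysorbate 80 (P80) from before pregnancy until the end of lactation. Offspring of both groups were wild-type. Pups stayed with the dams until weaning, so exposure through the dam and direct intake by the pups cannot be told apart, and the methods give 4 and 5 litters for the 2 groups. Libraries held between 28245360 and 46067534 estimated counts, lowest in CTRL 3. All 7 hypothalamic markers examined (Pomc, Agrp, Npy, Nr5a1, Hcrt, Pmch, Tbx3) were detected in every library, with a summed level of 538 to 584 CPM in CTRL and 381 to 552 CPM in Emul. Summed markers of astrocytes (Gfap, Aqp4, Aldh1l1) were at 449 to 495 CPM in CTRL and 334 to 421 CPM in Emul, and those of neurons (Snap25, Rbfox3, Syt1) at 1696 to 1851 and 1787 to 1926 CPM. Markers of microglia (3 genes) were at 122 to 133 CPM in CTRL and 119 to 126 in Emul, of endothelium (2 genes) at 36.5 to 42.1 and 35.8 to 43.1, of tanycytes (2 genes) at 38.0 to 46.5 and 35.7 to 45.7, of the neighbouring thalamus (2 genes) at 37.7 to 58.5 and 36.8 to 140, and of blood (2 haemoglobin genes) at 134 to 380 and 224 to 461. None of these markers was at 0 in any library, and the part of such shifts in the results was not tested. In bulk tissue, fewer cells of a type and less RNA per cell cannot be told apart.

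The mitochondrial ribosome (mitoribosome) translates the few mRNAs that mitochondrial DNA encodes, all of them for subunits of the respiratory chain and of ATP synthase. Its rRNAs come from mitochondrial DNA, whereas all of its proteins are encoded in the nucleus, made in the cytosol and imported. Many of these proteins are counterparts of bacterial ribosomal proteins and carry their numbers, and others are found only in mitochondria. Brain tissue relies heavily on oxidative phosphorylation, and inherited defects of several of these genes cause disease that affects the brain.

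The 76 genes lie on 17 chromosomes, with at most 10 on any chromosome. Promoter windows of 300 bases (250 before to 50 after the start of the gene, RefSeq, build GRCm38.p6) were at hand for 67 of them. Each window was searched on both strands for CCGGAAG, a core bound by ETS factors such as GABP (nuclear respiratory factor 2), for CGCATGCG, bound by NRF1, and for AAGATGGC, bound by YY1, all 3 known as regulators of nuclear genes for mitochondria. The ETS letters were in the windows of 25 of the 67 genes (37.3%), against 17.7% of the 11605 tested genes with a window and 9.93% of all 27025 genes with a window. The YY1 letters were in 11 (16.4%), against 4.74% of tested and 3.19% of all genes, and the NRF1 letters in 7 (10.4%), against 3.94% and 2.07%. By comparison, CCAAT was in 38.8% of the members' windows and in 42.6% of those of tested genes, and TATAAA in 7.46% and 9.49%. A match of letters is a description of the window and does not show binding. In all, 36 of the 67 genes held at least 1 of the ETS, NRF1 and YY1 matches, 3 held both an ETS and a YY1 match, and no matches to these 3 overlapped each other in any of the 73 windows of these genes.

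A second shared trait was position. For 32 of the 76 genes (42.1%), a protein-coding gene on the opposite strand starts within 1000 bases of the gene's own start, against 14.0% of the 14832 protein-coding genes tested. Starts were taken here from the outer gene bounds of GENCODE, which can differ from the RefSeq starts of the promoter windows. The partners include other genes of mitochondria, with Ndufs6 next to Mrpl36, Ndufb5 next to Mrpl47, Twnk (the mitochondrial DNA helicase) next to Mrpl43, and Sars2 (mitochondrial seryl-tRNA synthetase) next to Mrps12. Mrps11 and Mrpl46 are each other's partner, with starts 412 bases inside the gene of the partner by the outer gene bounds of GENCODE. By the RefSeq starts used for the promoter windows, these genes do not overlap. Where starts overlap, reads of the pair can be told apart only if counting used strand, which the sources used here do not state.

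The windows of 6 genes are shown 5′ to 3′ on the strand of the gene, with matches to the ETS, NRF1 or YY1 letters in capitals. Mrps18c (chr5:100798509-100798808, plus strand) had the largest fold change of the 76 and holds an ETS match in the reverse orientation. Mrpl36 (chr13:73330759-73331058, plus strand) was the gene with a lower level in Emul at an unadjusted p-value under 0.05 and holds a YY1 match. Mrps11 (chr7:78782881-78783180, plus strand) and Mrpl46 (chr7:78783040-78783339, minus strand) form the head-to-head pair, so that their windows share bases. Mrps18a (chr17:46110754-46111053, plus strand) is one of those with an ETS and a YY1 match, and Mrpl39 (chr16:84735195-84735494, minus strand) one of those with an NRF1 match.
Mrps18c: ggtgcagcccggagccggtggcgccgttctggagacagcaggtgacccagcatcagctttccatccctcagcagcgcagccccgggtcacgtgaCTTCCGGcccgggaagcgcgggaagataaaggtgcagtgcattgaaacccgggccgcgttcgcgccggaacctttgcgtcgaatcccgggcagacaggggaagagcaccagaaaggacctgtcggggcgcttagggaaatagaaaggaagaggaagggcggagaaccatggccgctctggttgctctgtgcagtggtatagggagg
Mrpl36: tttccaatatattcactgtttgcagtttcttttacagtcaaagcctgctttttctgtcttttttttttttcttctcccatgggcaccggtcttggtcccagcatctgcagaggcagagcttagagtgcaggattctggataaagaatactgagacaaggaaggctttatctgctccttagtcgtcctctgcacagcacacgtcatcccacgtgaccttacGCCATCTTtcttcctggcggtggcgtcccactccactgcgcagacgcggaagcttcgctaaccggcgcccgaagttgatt
Mrps11: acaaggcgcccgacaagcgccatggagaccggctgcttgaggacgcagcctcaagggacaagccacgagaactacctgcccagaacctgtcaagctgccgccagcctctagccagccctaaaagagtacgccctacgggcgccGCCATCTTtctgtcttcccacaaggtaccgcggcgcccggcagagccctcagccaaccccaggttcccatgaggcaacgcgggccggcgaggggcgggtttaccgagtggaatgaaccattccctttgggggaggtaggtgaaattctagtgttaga
Mrpl46: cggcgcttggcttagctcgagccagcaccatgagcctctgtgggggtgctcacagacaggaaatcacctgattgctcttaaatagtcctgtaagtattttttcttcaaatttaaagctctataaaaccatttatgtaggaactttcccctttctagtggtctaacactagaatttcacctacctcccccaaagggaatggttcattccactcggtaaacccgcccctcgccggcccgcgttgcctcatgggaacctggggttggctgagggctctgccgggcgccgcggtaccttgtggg
Mrps18a: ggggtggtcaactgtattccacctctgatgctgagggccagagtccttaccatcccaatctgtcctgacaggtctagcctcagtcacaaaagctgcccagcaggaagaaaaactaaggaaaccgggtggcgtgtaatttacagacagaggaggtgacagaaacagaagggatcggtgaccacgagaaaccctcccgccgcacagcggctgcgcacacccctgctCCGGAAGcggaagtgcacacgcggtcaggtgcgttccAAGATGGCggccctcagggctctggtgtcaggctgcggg
Mrpl39: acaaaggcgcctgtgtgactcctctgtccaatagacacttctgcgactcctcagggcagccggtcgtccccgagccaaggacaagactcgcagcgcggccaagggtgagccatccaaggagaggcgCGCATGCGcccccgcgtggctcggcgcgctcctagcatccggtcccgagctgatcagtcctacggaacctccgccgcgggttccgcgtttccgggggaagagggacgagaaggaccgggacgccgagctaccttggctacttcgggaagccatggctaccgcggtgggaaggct

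Transcript levels are given as TPM (length-corrected transcript abundance), summed over the transcripts of a gene, which allows genes to be compared. In CTRL, mean TPM ran from 7.86 to 121 over the 76 genes, a 15.4-fold range, with a median of 45.5 and quartiles at 32.2 and 60.9. Large-subunit genes had a median of 46.0 TPM and small-subunit genes 43.3 TPM. Although most of these proteins enter the ribosome in single copies, with the stalk protein Mrpl12 as an exception, the transcript sums were thus spread over an order of magnitude. These sums include transcripts not annotated as protein-coding, which held most of the counts in 7 of the 76 genes. The lowest gene, Mrpl23, shares 77.0% of the 31-base words of its main coding transcript with its pseudogene, so its level is uncertain. The genes were taken by name, and whether each product sits in the ribosome was not examined.

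The highest levels in CTRL were those of Mrpl41, a mitochondria-specific large-subunit protein (121 ± 10.6 TPM, SD, n = 4), Mrps21, the counterpart of bacterial S21 (113 ± 3.48), Mrpl20, which binds the large rRNA (108 ± 5.42), and Mrpl30 (108 ± 5.61). Each of these 4 differed from the next in the order by less than the larger SD of the pair. The lowest were those of Mrpl23 (7.86 ± 0.807 TPM), Mrps30, a protein with a small-subunit name that sits in the large subunit (11.7 ± 0.146), Mrpl1, a protein of the mobile L1 stalk (13.1 ± 0.884), and Mrps28 (17.0 ± 1.24). Among these 4, each step in the order exceeded the SD of either neighbour. The order of the genes was nearly the same in Emul, with a Spearman correlation of 0.99 between the mean TPM of the groups over the 76 genes, which share library preparation and length (description across genes, with no p-value).

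**Figure D1:**
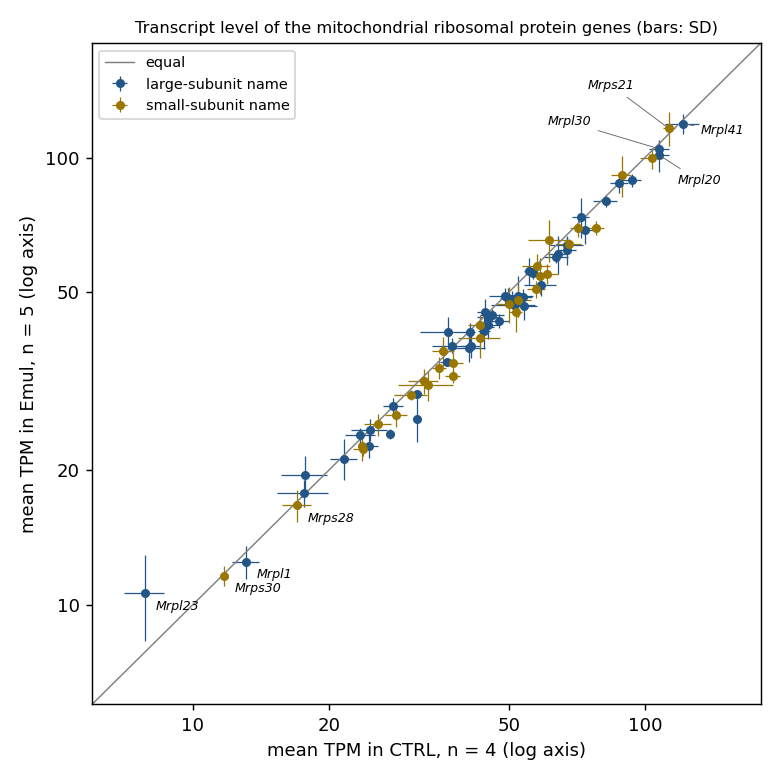
Mean TPM in Emul (y axis, 5 libraries) against mean TPM in CTRL (x axis, 4 libraries) for the 76 genes, on log axes, with bars for the SD. The genes run from 7.86 to 121 TPM in CTRL, lie along the line of equal levels with most slightly below it, and Mrpl23 at the lower end lies above it.

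On the TPM scale, 60 of the 76 genes had a lower mean in Emul. The same share over all genes is not given here, so this count is not read as a trait of the 76 genes. The sum over the 76 genes was 3710 to 3883 TPM in CTRL and 3566 to 3691 TPM in Emul. The groups did not overlap in this sum. TPM values of a library add to a fixed total, and the 13 mitochondrially encoded protein genes took 12.6% to 15.4% of it in CTRL and 16.2% to 19.2% in Emul. As a share of the TPM of nuclear genes alone, the 76 genes made up 0.445% to 0.451% in CTRL and 0.441% to 0.461% in Emul, so that the groups overlapped. Of the estimated counts, they took 0.177% to 0.178% in CTRL and 0.173% to 0.182% in Emul. The TPM of large-subunit genes over that of small-subunit genes was 1.65 ± 0.0240 in CTRL and 1.65 ± 0.0123 in Emul (SD, n = 4 and 5).

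The groups were compared by limma-voom on gene sums of the estimated counts, scaled by TMM, over 15340 genes. Fold changes below are log2 values, positive where Emul is higher, and are given with a standard error (SE). No mitochondrial ribosomal protein gene differed at an adjusted p-value under 0.05 or under 0.10 (Benjamini-Hochberg over all genes), where 0.117% and 0.398% of all genes did. The lowest adjusted p-value of limma-voom among the 76 genes was 0.21, and none of them had an unadjusted p-value under 0.01, where 5.26% of all genes did. By edgeR's quasi-likelihood test the count at an adjusted p-value under 0.10 was 0 as well, where 0.685% of all genes passed. By DESeq2 it was 1, Mrps18c (adjusted p = 0.088), where 5.65% of the 12663 genes given an adjusted p-value passed. At an unadjusted p-value under 0.05, 5 genes were higher in Emul (6.58%, against 6.84% of all genes tested) and 1 was lower (1.32%, against 8.99% of all genes). The first share is near the background, and the second is below it.

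The counts of higher and lower genes rested on single libraries and on the scaling. Without CTRL 1, CTRL 3, CTRL 4 or Emul 1, 2 of the 76 genes were higher (5.13% to 6.28% of all genes were, over these fits), without Emul 2, 3 genes (6.9% of all genes), without CTRL 2, 8 genes (6.08% of all genes), and without Emul 4, 8 genes (8.28% of all genes). The count of lower genes was 0 without CTRL 1, CTRL 2, CTRL 4 or Emul 3 (7.35% to 8.21% of all genes were), and 2 without CTRL 3 (7.53% of all genes). With library size alone in place of TMM, 1 gene was higher and 3 were lower, against 3.37% and 14.7% of all genes. With a change above 1.5-fold required as well, none of the 76 genes passed at an unadjusted p-value under 0.05, where 0.469% of all genes did.

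All changes were small. The largest was 0.24 on the log2 scale and the median size was 0.06, equal to the median size over all genes (0.06). The 95% confidence intervals of all 76 genes lay within the 1.5-fold limits (±0.58), between -0.36 and 0.42, whereas 93.1% of all tested genes had such intervals. For 66 of the 76 genes (86.8%), the interval lay within ±0.25, against 62.1% of all genes. The median spread between litters of a group was 0.07 for these genes and 0.09 for all genes (pooled SD of log2 CPM within groups). A 1.5-fold change was thus outside the interval of every gene sum in this fit.

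**Figure D2:**
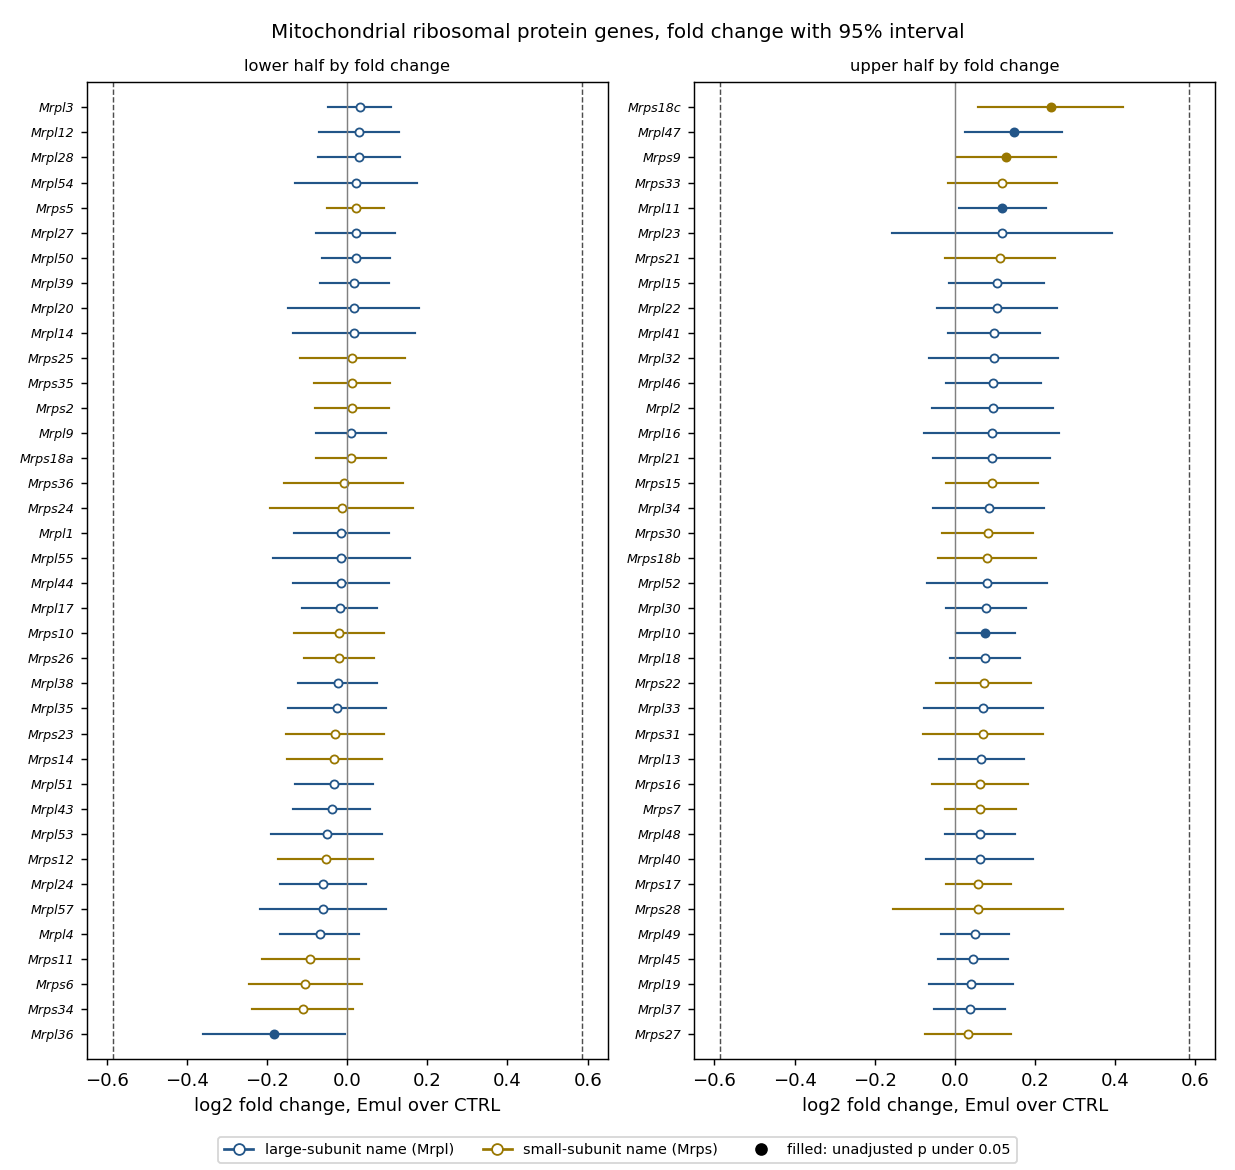
Log2 fold change of Emul over CTRL (x axis) with its 95% confidence interval for each of the 76 genes (rows, sorted by fold change in 2 columns), with dashed lines at the 1.5-fold limits (±0.58). No interval reaches a dashed line, and the 6 filled points have an unadjusted p-value under 0.05.

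The direction was more often upward than downward, by a margin that depended on the scaling. With library size alone, 40 of the 76 were positive, with medians of 0.00 for the 76 genes and -0.03 for all genes. With TMM, of the 76 genes, 53 (69.7%) had a positive fold change, against 50.8% of all genes tested, and the median was 0.03 against 0.00 over all genes. The median was 0.04 for the 47 large-subunit genes (34 positive) and 0.02 for the 29 small-subunit genes (19 positive). Genes for counterparts of bacterial proteins (47, by number or by identity with bacterial L29, S3 and S1 for Mrpl47, Mrps24 and Mrps28) had a median of 0.06, and 35 were positive. The other 29, for proteins found only in mitochondria, had a median of 0.02, and 18 were positive. All 6 genes with an unadjusted p-value under 0.05 were among the former 47. The share of all genes tested with such a p-value was 15.8%, in either direction. Mrpl47, among these 6, was placed in that class by identity and not by number. The classing was made after the values were seen, so it cannot test whether such genes gather in that class. Genes that are expressed together are not independent, so these counts are descriptions.

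The mean deviation of the 76 genes from their own means was -0.00, -0.02, -0.05 and -0.01 log2 units in CTRL 1 to 4 and 0.03, 0.07, -0.02, 0.01 and -0.02 in Emul 1 to 5. The groups overlapped, with Emul 2 highest and CTRL 3, the library of lowest depth, lowest. Emul 2 was the highest of the 9 libraries for 25 of the 76 genes, and CTRL 3 was the lowest for 25. Without Emul 2 the median fold change of the 76 genes was 0.02, and without CTRL 3 it was 0.03. Emul 2 was also the Emul library with most of its counts on genes of mitochondrial DNA that encode proteins (6.75%, against 5.71% to 6.33% in the other Emul libraries).

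**Figure D3:**
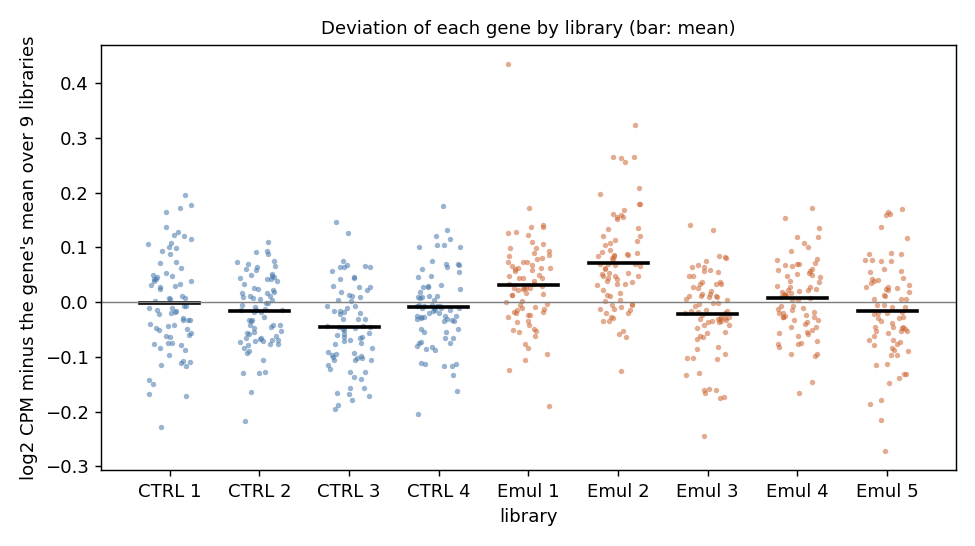
Log2 CPM of each of the 76 genes minus its mean over the 9 libraries (y axis, log2 units), 1 point per gene and library, with a bar at the mean of each library. The bars run from -0.05 in CTRL 3 to 0.07 in Emul 2, and the ranges of the groups overlap.

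Among small-subunit genes, Mrps18c stood first by both size and p-value. It encodes one of several relatives of bacterial S18 and is part of the small subunit. Its level was 3.80, 3.91, 3.87 and 3.76 log2 CPM in CTRL 1 to 4 and 4.10, 4.29, 3.97, 3.87 and 4.14 in Emul 1 to 5. All Emul libraries except Emul 4 lay above the highest CTRL library. The fold change was 0.24 (SE 0.083), with an unadjusted limma-voom p-value of 0.014 and an adjusted p-value of 0.21. Over the other settings it lay between 0.18 and 0.30, with adjusted p-values from 0.088 to 0.44, and the unadjusted p-value stayed under 0.05 without any single library and in all settings but lengthScaledTPM (0.077). Its relatives Mrps18b, also of the small subunit, and Mrps18a, which sits in the large subunit, had fold changes of 0.08 (SE 0.057, limma-voom adjusted p = 0.52) and 0.01 (SE 0.040, adjusted p = 0.93).

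Mrps9, the counterpart of bacterial S9 in the head of the small subunit, was at 4.46, 4.61, 4.52 and 4.60 log2 CPM in CTRL and at 4.76, 4.70, 4.76, 4.54 and 4.65 in Emul. Only Emul 4 lay within the range of CTRL. The fold change was 0.13 (SE 0.057, limma-voom adjusted p = 0.30), and the unadjusted p-value of 0.043 rose above 0.05 without any of CTRL 1, CTRL 3, Emul 1, Emul 2 or Emul 3, to at most 0.14. Mrps12, which lies at the decoding centre, had a fold change of -0.05 (95% interval -0.17 to 0.06), and Mrps21, the second most abundant, one of 0.11 (-0.03 to 0.25).

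Of the remaining small-subunit genes with small p-values, Mrps33, mitochondria-specific, was at 4.79 to 4.89 log2 CPM in CTRL and 4.81 to 5.16 in Emul. Its fold change was 0.12 (SE 0.062, limma-voom adjusted p = 0.38). On the other side were Mrps34, mitochondria-specific and needed for a stable small subunit, at -0.11 (SE 0.057, adjusted p = 0.37), Mrps6 at -0.10 (SE 0.065, adjusted p = 0.46) and Mrps11 at -0.09 (SE 0.055, adjusted p = 0.44). None of these passed the test, and the groups overlapped in each. For Mrps34, 55.6% of the 31-base words of its main coding transcript also occur in transcripts of Mapk8ip3, so that its reads are less certain.

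**Figure D4:**
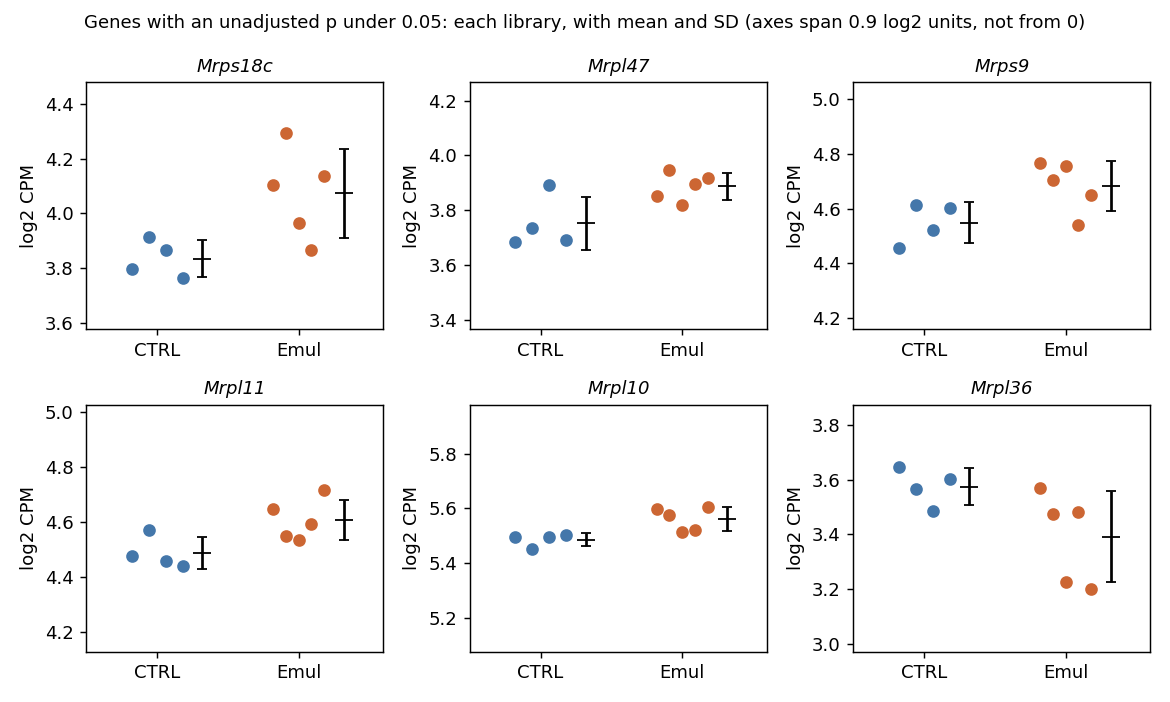
Log2 CPM (y axis, span of 0.9 log2 units in each panel) of the 6 genes with an unadjusted p-value under 0.05, with 1 point per library and the mean and SD of each group at its right. The groups overlap in 5 panels, and in the panel of Mrpl10 all 5 Emul points lie above all 4 CTRL points.

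In the stalk of the large subunit, which recruits translation factors, both Mrpl10 and Mrpl11 were higher in Emul at an unadjusted p-value under 0.05. They are 2 of the 3 stalk genes listed, and 6.84% of all genes tested were higher. Mrpl10, the base of the stalk, was at 5.50, 5.45, 5.50 and 5.50 log2 CPM in CTRL and at 5.60, 5.58, 5.51, 5.52 and 5.60 in Emul. It was the single gene of the 76 whose groups did not overlap (2.8% of all genes tested lay wholly higher in Emul and 3.8% wholly lower). The fold change was 0.08 (SE 0.034, limma-voom adjusted p = 0.31, exact permutation p = 0.024). The call was lost without any 1 of the 4 CTRL libraries, Emul 1, Emul 2 or Emul 5, with an unadjusted p-value of at most 0.13.

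Mrpl11, which lies beside the stalk and shapes the factor-binding site, was at 4.48, 4.57, 4.46 and 4.44 log2 CPM in CTRL and at 4.65, 4.55, 4.53, 4.59 and 4.71 in Emul. CTRL 2 lay within the range of Emul. The fold change was 0.12 (SE 0.050, limma-voom adjusted p = 0.27, exact permutation p = 0.048), and the unadjusted p-value rose to at most 0.10 without CTRL 1, CTRL 3, CTRL 4, Emul 1 or Emul 5. Mrpl12, the multi-copy stalk protein that also binds the mitochondrial RNA polymerase, had a fold change of 0.03 (95% interval -0.07 to 0.13).

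Around the exit of the peptide tunnel, where new chains leave the ribosome for the inner membrane, none of the 7 genes of the list had a gene sum with an unadjusted p-value under 0.05. Of all genes tested, 15.8% did, in either direction. Fold changes were -0.02 for Mrpl17 (95% interval -0.11 to 0.07), 0.10 for Mrpl22 (95% interval -0.05 to 0.25), 0.12 for Mrpl23 (-0.16 to 0.39), -0.06 for Mrpl24 (-0.17 to 0.05), 0.02 for Mrpl39 (-0.07 to 0.10), -0.02 for Mrpl44 (-0.14 to 0.11) and 0.05 for Mrpl45 (-0.04 to 0.13), the protein that tethers the ribosome to the membrane. The sign of Mrpl39 depended on how transcripts were summed, with -0.09 in the deposited gene table and -0.09 with lengthScaledTPM, and on scaling, with -0.01 for library size alone. Mrpl47, the counterpart of bacterial L29 at the same face of the subunit but not in that list, passed an unadjusted p-value of 0.05. It was at 3.69, 3.74, 3.89 and 3.69 log2 CPM in CTRL and at 3.85, 3.95, 3.82, 3.90 and 3.92 in Emul. CTRL 3 lay within the range of Emul, and the other CTRL libraries below it. The fold change was 0.15 (SE 0.056, limma-voom adjusted p = 0.24, exact permutation p = 0.048), and the unadjusted p-value of 0.022 rose to 0.068 without CTRL 1 and to 0.073 without CTRL 4.

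Mrpl36, among the smallest proteins of the large subunit, was the gene called lower in Emul. It was at 3.64, 3.56, 3.49 and 3.60 log2 CPM in CTRL and at 3.57, 3.47, 3.23, 3.48 and 3.20 in Emul. Emul 3 and Emul 5 lay far below the rest, and Emul 1 lay within the range of CTRL. The fold change was -0.18 (SE 0.081, limma-voom adjusted p = 0.30), with an unadjusted p-value of 0.044 that rose to between 0.069 and 0.11 without CTRL 1, CTRL 2, CTRL 4, Emul 3 or Emul 5. Its head-to-head neighbour Ndufs6, a subunit of respiratory complex I, had a fold change of 0.05.

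Other large-subunit genes named by the rule did not pass the test. Mrpl15 had a fold change of 0.10 (SE 0.054, limma-voom adjusted p = 0.38) and Mrpl4, which lines the tunnel, one of -0.07 (SE 0.046, adjusted p = 0.49). The most abundant, Mrpl41, Mrpl30 and Mrpl20, had fold changes of 0.10 (95% interval -0.02 to 0.21), 0.08 (-0.02 to 0.18) and 0.02 (-0.15 to 0.18), and the sign of the last changed with library size alone. Of the least abundant, Mrps30 had a fold change of 0.08 (-0.03 to 0.20), Mrpl1 one of -0.01 (-0.13 to 0.10) and Mrps28 one of 0.06 (-0.15 to 0.27). In the head-to-head pair, named after values were seen, Mrpl46 had a fold change of 0.10 (-0.02 to 0.22) and Mrps11 one of -0.09 (-0.21 to 0.03), neither past the test. The sign of Mrps11, with 63.3% of its counts on transcripts not annotated as protein-coding, depended on the transcripts summed, and its fold change was 0.15 with protein-coding transcripts only. Of the 31 genes with a tested head-to-head partner, 13 had the same sign of change as the partner.

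Mrpl23 was the gene for which the choice of transcripts mattered most. Its product is the counterpart of bacterial L23 at the tunnel exit. On average 73.8% of its estimated counts lay on transcripts that are not annotated as protein-coding, most of them on a retained-intron transcript of 3715 bases. Its protein-coding transcripts (3 in all) held 28.7, 29.0, 18.2 and 33.8 estimated counts in CTRL 1 to 4 and 76.0, 63.2, 62.2, 66.4 and 54.8 in Emul 1 to 5. Every Emul library lay above every CTRL library, whereas the retained-intron transcript was at 72.6 to 143 counts in CTRL and 59.3 to 106 in Emul. By log2 CPM of gene sums, 2.8% of all genes tested lay wholly higher in Emul. The same share for sums of coding transcripts is not given here. The share of the gene's counts on coding transcripts was 16.3% ± 1.30 in CTRL and 33.4% ± 1.65 in Emul (SD, n = 4 and 5, exact permutation p = 0.0079, the smallest that 9 libraries allow). Mrpl23 was singled out after these values were seen, so this p-value is a description and cannot serve as a test.

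When protein-coding transcripts alone were summed per gene, the fold change of Mrpl23 was 1.13 (SE 0.16, limma-voom adjusted p = 0.031), against 0.12 (SE 0.13, adjusted p = 0.69) for all of its transcripts. It was the single gene of the 76 past an adjusted p-value of 0.05 in that setting, in which 0.0688% of all genes were. It passed the filter on low counts there only through the Emul libraries. With a filter on the mean CPM over all 9 libraries, added after seeing the data, the fold change was again 1.13 (adjusted p = 0.037), and 0.0648% of all genes passed an adjusted p-value of 0.05. Its main coding transcript alone, which carried all coding counts in CTRL, held 28.7, 29.0, 18.2 and 33.8 counts in CTRL and 54.6, 54.9, 60.2, 55.9 and 34.8 in Emul, with a transcript-level fold change of 0.82 (SE 0.21, limma-voom adjusted p = 0.34). The other coding transcripts were at 0 in all CTRL libraries. In the deposited gene table, which holds log2 CPM and was tested by limma-trend, the fold change of Mrpl23 was 0.45 (SE 0.17, limma-trend adjusted p = 0.31).

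Reads of Mrpl23 are hard to assign. Of the 31-base words of its main coding transcript, 77.0% also occur in Mrpl23-ps1, its processed pseudogene, which held 350 to 518 estimated counts in CTRL and 396 to 568 in Emul, several times those of the coding transcripts. The fold change of Mrpl23-ps1 was -0.01 (SE 0.076, limma-voom adjusted p = 0.97). With the coding transcripts of Mrpl23 and Mrpl23-ps1 summed, a setting added after seeing the data, the fold change was 0.09 (SE 0.072, adjusted p = 0.64), and counts were 368 to 547 in CTRL and 451 to 632 in Emul. The coding transcripts made up 5.65% ± 0.675 of that sum in CTRL and 12% ± 1.65 in Emul (SD, n = 4 and 5, exact permutation p = 0.0079). This p-value, too, is a description of a gene singled out by its values. A rise of Mrpl23 coding mRNA and a different split of shared reads cannot be told apart with these files.

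**Figure D5:**
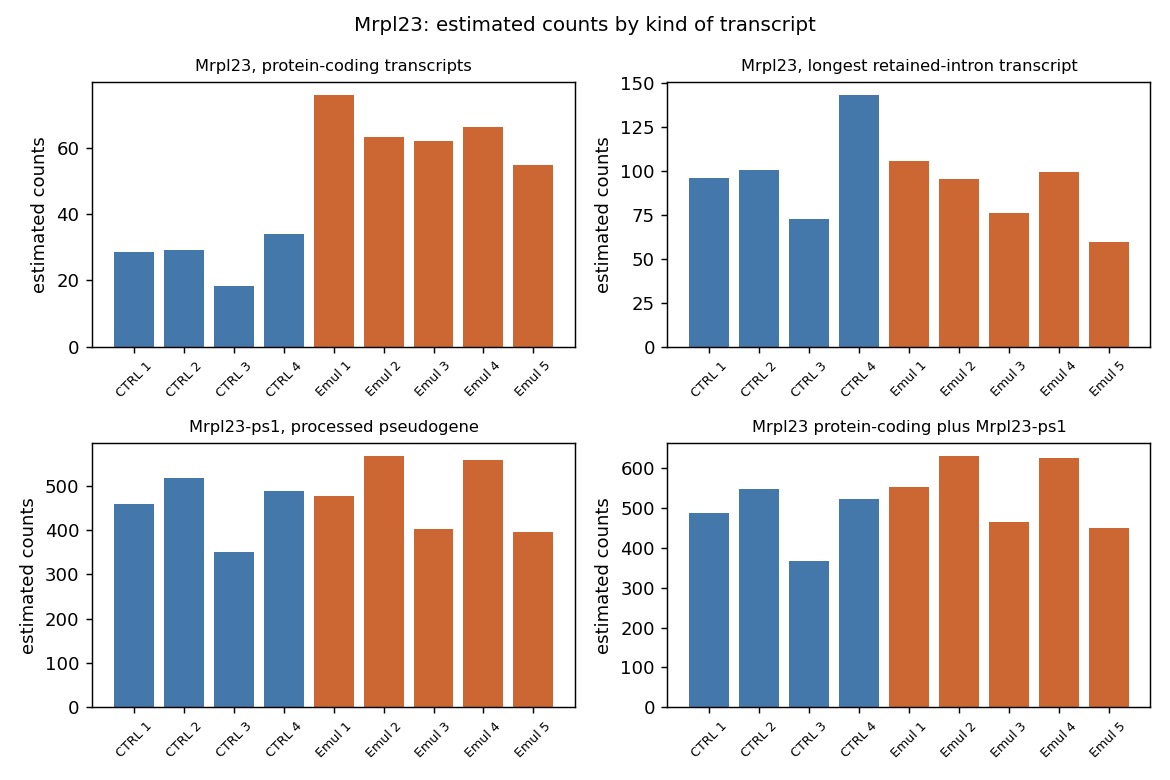
Estimated counts (y axis, from 0) in each library for the protein-coding transcripts of Mrpl23, its longest retained-intron transcript, its pseudogene Mrpl23-ps1, and the coding transcripts plus the pseudogene. The coding transcripts are at 18.2 to 33.8 in CTRL and 54.8 to 76.0 in Emul, and the groups overlap in the other 3 panels.

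At the level of transcripts, 218 of the 328 transcripts of the 76 genes in the files were tested (mean CPM above 0.5). At an unadjusted p-value under 0.05, 11 were higher (5.05%, against 4.7% of all transcripts) and 9 were lower (4.13%, against 5.25%), and limma-voom called none of the 218, or of all 48545, at an adjusted p-value under 0.05. The 20 transcripts belonged to 16 genes, and 8 of them were protein-coding. Mrpl3, chosen after these values were seen, held 4 of the 20, in both directions. Its coding transcript of 2309 bases had a fold change of 0.13 (SE 0.045), a retained-intron transcript one of 0.50 (SE 0.14), a processed transcript one of 0.41 (SE 0.15) and a transcript subject to nonsense-mediated decay one of -0.48 (SE 0.18), all with adjusted p-values of 0.37 or more. The nonsense-mediated decay transcript held 321 to 361 estimated counts in CTRL and 196 to 302 in Emul, not scaled for library depth. The gene sum of Mrpl3 had a fold change of 0.03 (95% interval -0.05 to 0.11).

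In the deposited log2 CPM table, which the authors summed from transcripts in a way that is not stated, 4 of the 76 genes were higher in Emul at an unadjusted limma-trend p-value under 0.05 (5.26%, against 6.05% of the 14592 rows) and 0 were lower (against 7.42%). At an adjusted limma-trend p-value under 0.05 none was called (0.0343% of all). The 4 were Mrpl23 (0.45, SE 0.17), Mrpl32 (0.30), Mrpl47 (0.24) and Mrps18c (0.23), where Mrpl32 is named because it was called here. Of the 6 genes called from the transcript files, 2 were also called here. The sign of the fold change was the same in both measures for 67 of the 76 genes, and the measures differed by more than 0.1 for 3.

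Other components of the mitochondrial translation system were taken from lists of known members. Of 7 mitoribosome proteins outside the naming rule, none passed an unadjusted p-value of 0.05 (15.8% of all genes tested did, in either direction), with a median of 0.05. The smallest p-values were those of Chchd1 (0.14, 95% interval -0.02 to 0.30) and Mrpl42 (0.11, -0.01 to 0.24). Mrpl58, a peptidyl-tRNA hydrolase built into the large subunit, had a fold change of 0.07 (-0.05 to 0.19), Dap3, the GTP-binding protein of the small subunit, one of -0.00 (-0.07 to 0.06) and Ptcd3 one of 0.01 (-0.06 to 0.07). Mrpl42 and Mrpl58 do not appear under these names in the deposited gene table and were measured from the transcript files.

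Of 13 translation factors, 1 was higher at an unadjusted p-value under 0.05, where 6.84% of all genes tested were, and the median was 0.02. This was Gfm2, which splits the subunits after termination, at 5.20 to 5.26 log2 CPM in CTRL and 5.27 to 5.39 in Emul (0.09, SE 0.037, limma-voom adjusted p = 0.26), followed by Guf1 (0.09, SE 0.051). Of 25 assembly factors, 1 was lower, where 8.99% of all genes tested were, and the median was -0.00. Nsun4, which methylates the small rRNA and joins Mterf4 in assembly of the large subunit, was at 3.64 to 3.71 log2 CPM in CTRL and 3.49 to 3.56 in Emul. Its groups did not overlap (-0.17, SE 0.049, limma-voom adjusted p = 0.16, exact permutation p = 0.0079), and 3.8% of all genes tested lay wholly lower in Emul. Its partner Mterf4 had a fold change of -0.00 (SE 0.072), and Mtg1, a GTPase of assembly, one of 0.13 (SE 0.064).

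Of 20 mitochondrial aminoacyl-tRNA synthetases and related enzymes, 1 was higher, 1 was lower and the median was -0.01. Of all genes tested, 6.84% were higher and 8.99% lower. Lars2 had a fold change of 1.03 (SE 0.46, limma-voom adjusted p = 0.30, exact permutation p = 0.13). It ranged from 9.64 to 10.9 log2 CPM in CTRL and from 9.96 to 12.6 in Emul. Both its level and its spread were far above those of the other genes of the list. Whether all of its counts come from Lars2 mRNA was not tested. Vars2 was the lower one (-0.13, SE 0.056, adjusted p = 0.27). The mRNAs that the mitoribosome translates behaved otherwise. All 13 mitochondrially encoded protein genes were higher in Emul at an unadjusted p-value under 0.05 (6.84% of all genes tested were), with a median of 0.37. Genes that are expressed together are not independent, so the 13 are not separate observations. Of them, 3 passed an adjusted limma-voom p-value of 0.05 (0.117% of all genes did), mt-Nd6 (0.34, SE 0.040), mt-Nd5 (0.28, SE 0.038) and mt-Nd1 (0.37, SE 0.062). Without a stated strand setting, mt-Nd6 and transcripts of the opposite strand cannot be told apart. The lowest of the 13 estimates, 0.19 for mt-Co1, was above those of all of the ribosomal protein genes except Mrps18c. The difference between the sets was not tested.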

How the data were processed

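The authors sequenced polyA-enriched, strand-specific libraries and quantified transcripts on mm10 with kallisto 0.46.1 (FastQC 0.11.9 and edgeR 3.40.1 are also in the submitters' processing notes). They deposited, for each library, estimated counts and TPM per transcript, neither filtered, and a gene table that the authors put on a log2 CPM scale. How transcripts were summed for that table is not given in the sources used here.

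Transcripts were matched to GENCODE M21 genes (97.8% matched; unmatched ones carried up to 1.27% of counts and were left out), and estimated counts and TPM were summed per gene. The filter was CPM above 1 in no fewer than 4 libraries, which 15340 genes passed. Emul and CTRL were compared by limma-voom (limma 3.58.1) after TMM scaling, without covariates, over all 15340 genes, and Benjamini-Hochberg adjustment ran over all of them. The deposited log2 CPM table holds no counts and was tested by limma-trend. Counts were rounded for edgeR 4.0.16 and DESeq2 1.42.0. Log2 CPM of libraries used a prior count of 2. Two-sided exact permutation tests of single values used all 126 assignments of the group labels. Groups and numbers came from the sample titles, and no batch was given. The tests were checked on simulated counts. Members held 117 to 2800 estimated counts per library, so precision is lowest for the least abundant.

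Genes named were those with the 7 smallest p-values in each direction, the 5 largest changes, the 4 highest and 4 lowest TPM, and fixed roles, plus the 2 smallest p-values of each other list. Members and lists were chosen with earlier results of these data known. The classing by bacterial counterpart, the promoter search, the pairs and the transcript values were chosen after the values were seen. Alternatives were other tools, scalings, filters, transcript sets, GC and length trends, thinning, quality weights, a replicate block, leave-one-out fits, and other thresholds. Markers of 1 further cell type are not reported here.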

Additional observations from a re-analysis of the deposited data

Results flagged for a closer look

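For the named genes and for 4 summary values, a library was marked where its gap to the next library of its group took up most of the range of that group. Of 66 groups of libraries examined, 6 were marked, and chance would mark about 3.3. The 6 lie in 6 genes, with Mrps6 in CTRL 1 highest at 4.28 log2 CPM against 4.17 to 4.18 in the other CTRL libraries (ratio of gap to range 0.957). Mrpl10 in CTRL 2 was lowest at 5.45 against 5.50 to 5.50 (0.871), and the difference between the groups in Mrpl10 was 0.06 without that library. Mrpl23 in Emul 1 was highest at 2.66 against 2.15 to 2.25 (0.800), Mrpl24 in Emul 5 was lowest at 4.76 against 4.88 to 4.92 (0.785), Mrpl44 in Emul 3 was lowest at 3.82 against 3.99 to 4.05 (0.750), and Mrpl20 in Emul 2 was highest at 5.16 against 4.79 to 4.88 (0.741).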

How the results depend on the processing

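The median fold change of the 76 genes (0.03) was 0.00 to 0.05 under the 27 other settings, each shift smaller than the spread between library means within groups (SD 0.03), and exceeded the median of all genes by 0.02 to 0.05 in each. With library size alone, 1 gene was higher and 3 were lower, and with lengthScaledTPM 3 were higher and 0 lower. The count of lower genes, 1 in the main analysis, was 0 with edgeR, DESeq2, the deposited gene table, older transcript numbers only, the GC trend removed, and sample quality weights, and 2 with the transcript length trend removed. At an unadjusted p-value under 0.01, at one under 0.05 with a change above 1.5-fold, and at adjusted p-values under 0.05 or 0.10, 0 genes were higher and 0 lower by limma-voom, against 6 at an unadjusted p-value under 0.05. Over the fits that leave out 1 library, 2 to 8 genes were higher and 0 to 2 lower, with medians from 0.02 to 0.05. With the replicate number as a block, 4 were higher and 0 lower. Same-numbered libraries did not deviate together (correlations of -0.16, -0.01, 0.02 and -0.06 for numbers 1 to 4). Such correlations cannot exclude a pairing, and the labels do not state whether the numbers pair the samples. The cause of these shifts was not tested. For the 29 named genes, 677 of 785 gene and setting combinations kept the sign and the side of the threshold, 60 lost the call, 23 gained it, 25 changed sign without a call in either, and 0 changed sign with a call. Transcripts with few counts, such as those of Mrpl23, are limited by depth and by shared sequence.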
